A study of Mus musculus with 5 samples.

Results

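The 7 genes described here encode the MHC class II antigen presentation machinery as an epithelial cell can express it. They were taken by name: Ciita, H2-Aa, H2-Ab1, H2-Eb1, Cd74, H2-DMa and H2-DMb1, all of them present among the 32793 gene rows of the study. Bulk RNA sequencing was done on mouse colon spheroids, which are hollow balls of epithelial cells grown in culture. There were 2 libraries from cells with the dimerization-deficient alleles Notch1DD and Notch2DD (called NDD here) and 3 from wild-type cells (WT), all on a mixed strain background that is mostly C57Bl6 with some FVB. Counts per gene cannot show the DD changes, so the genotype labels were not checked. No treatment, age or sex is given in the labels, nor whether the cultures of a group came from separate mice, so the p-values below measure only the spread between these libraries, which may be technical.

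MHC class II molecules present peptides from the endosomal route to CD4 T cells. Each is a pair of an alpha and a beta chain, assembled with the invariant chain, and peptide is loaded in endosomes with the help of DM. In most cells that are not professional antigen-presenting cells, class II genes are silent until interferon-gamma induces the coactivator CIITA, which is recruited by RFX, NF-Y and CREB proteins at paired elements in class II promoters called the X box and the Y box. Intestinal epithelium is known to carry class II, at levels that vary with microbial and immune signals.

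The paired promoter elements are shown first, because they are a sequence feature found in several of these genes. The RefSeq promoter windows (GRCm38.p6, from 250 bases before to 50 after each start) held 4 of the 7 genes: H2-Aa, H2-Eb1, H2-DMa and H2-DMb1. An X box core (CTNGNAAC) was followed on the same strand by a Y box core (ATTGG), with starts 30 to 40 bases apart, in 3 of these 4. The letters were chosen with the sequences in view, both strands were searched and the cores do not overlap. In the lines below, capitals mark the X box core and then the Y box core. The H2-Aa stretch is chr17:34287861-34287913 on the minus strand, and the H2-Eb1 stretch is chr17:34305767-34305818 on the plus strand. Both lie upstream of the start.
H2-Aa: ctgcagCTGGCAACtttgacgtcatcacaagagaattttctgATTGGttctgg
H2-Eb1: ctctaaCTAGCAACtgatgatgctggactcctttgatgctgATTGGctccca
The cores started 36 bases apart in H2-Aa and 35 bases apart in H2-Eb1, and 36 bases apart in H2-DMb1, whose stretch is not printed. Of all 32851 windows, 13.2% held the X box core, 37.4% held the Y box core and 47 (0.143%) held the pair at this distance. Of the 2 windows of H2-DMa, neither held the pair. Among other class II genes, the window of H2-Ob held it and those of H2-Oa, H2-DMb2 and H2-Eb2 did not. These matches describe letters and do not show binding.

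The genes occupy 3 chromosomes in GENCODE M21 (GRCm38). Ciita is at chr16:10480059-10528418 and Cd74 at chr18:60803848-60812652, both on the plus strand. The other 5 lie within 197 kb of the MHC on chromosome 17, in the order H2-DMa (chr17:34119541-34139101, plus), H2-DMb1 (chr17:34153072-34160230, plus), H2-Ab1 (chr17:34257689-34269419, plus), H2-Aa (chr17:34282744-34287823, minus) and H2-Eb1 (chr17:34305867-34316674, plus).

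All 7 genes were read in low amounts, and in all 7 the highest library was NDD replicate 2, as it was in 33.9% of all tested genes. In that library the 7 genes had 1015 counts together, or 47.5 CPM (counts per 1000000 counts, scaled with TMM factors), with an exact Poisson 95% interval of 44.6 to 50.5. In NDD replicate 1 they had 130 counts, or 5.68 CPM (4.75 to 6.75). In WT replicates 1, 2 and 3 they had 5.69 (4.68 to 6.86), 11.8 (10.5 to 13.3) and 4.42 CPM (3.61 to 5.36). For the sum, NDD replicate 1 therefore lay within the range of the WT libraries, and NDD replicate 2 was 4.02-fold above the highest WT library and 8.36-fold above the other NDD library. These intervals cover counting error only. In bulk RNA, more cells carrying the transcripts and more transcript per cell cannot be told apart.

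NDD replicates 1 and 2 held 22372029 and 22122748 counts and the WT libraries from 19192389 to 23064000. The part of depth in the class II values was not tested. A count of 0 allows up to 3 counts (a one-sided 95% Poisson limit, where the intervals given for other counts are two-sided), which is 0.130 to 0.156 CPM unscaled. The 10 epithelial markers summed to 15900 and 14200 TPM in NDD replicates 1 and 2 and 13900 to 15200 TPM in WT (TPM, transcripts per 1000000, is corrected for length). NDD replicate 2 stood apart more widely: it was at least 2-fold above each other library in 382 of 13501 tested genes, or 2.83%, against 0.363% for NDD replicate 1 and 0.119% to 0.674% for the WT libraries.

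**Figure D1:**
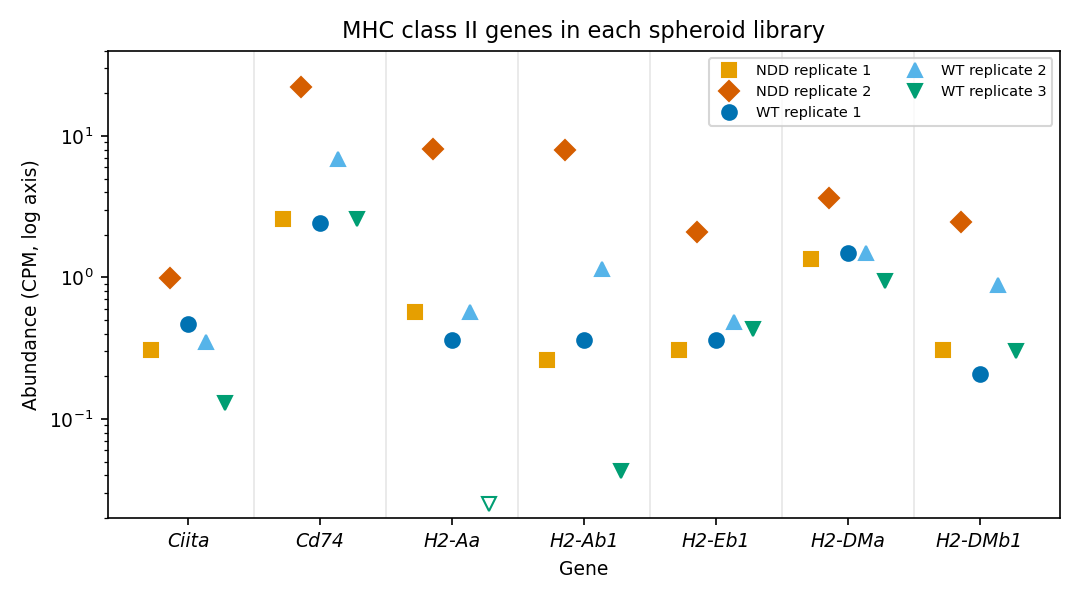
Abundance of the 7 class II genes (CPM with TMM scaling, log axis) in each of the 5 libraries, 1 symbol per library. NDD replicate 2 is the highest point for every gene, NDD replicate 1 sits among or beside the WT libraries, and the open triangle stands for H2-Aa at 0 counts in WT replicate 3, drawn near the base of the axis.

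The coactivator Ciita, which switches on the other genes and does not itself bind DNA, was close to the detection limit. It had 7 and 21 counts in NDD replicates 1 and 2 and 9, 8 and 3 counts in WT replicates 1, 2 and 3, or 0.306 and 0.983 CPM against 0.466, 0.352 and 0.129 CPM. Only NDD replicate 2 had over 10 counts, and the groups overlapped. NDD averaged 0.645 ± 0.479 CPM (SD, n = 2) and WT averaged 0.315 ± 0.172 CPM (SD, n = 3), and NDD over WT was 1.03 on the log2 scale (SE 0.76 and adjusted p 0.555 in edgeR).

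The chains of the class II molecule I-A showed the widest gap between NDD replicate 2 and the other libraries. H2-Aa, the alpha chain, had 13 and 174 counts in NDD replicates 1 and 2 and 7, 13 and 0 in WT, or 0.568 and 8.15 CPM against 0.362, 0.571 and 0 CPM. H2-Ab1, the beta chain, had 6 and 169 counts in NDD and 7, 26 and 1 in WT, or 0.262 and 7.91 CPM against 0.362, 1.14 and 0.0429 CPM. NDD replicate 2 was 14.3-fold above the next highest library for H2-Aa and 6.93-fold for H2-Ab1, the next highest being WT replicate 2 in both. WT replicate 3 was the lowest library for both chains. NDD over WT, on the log2 scale, was 3.79 for H2-Aa (SE 1.34 and adjusted p 0.437 in edgeR) and 2.96 for H2-Ab1 (SE 1.42 and adjusted p 0.469 in edgeR). H2-Aa averaged 4.36 ± 5.36 CPM over the NDD libraries (SD, n = 2) and 0.311 ± 0.289 CPM over the WT libraries (SD, n = 3), so the SD in NDD exceeded the mean.

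H2-Eb1 encodes the beta chain of the second class II molecule, I-E, whose alpha chain gene is defective in C57BL/6 mice (H2-Ea-ps). It had 7 and 45 counts in NDD replicates 1 and 2 and 7, 11 and 10 in WT, or 0.306 and 2.11 CPM against 0.362, 0.483 and 0.429 CPM. The WT libraries were close to each other, at 0.425 ± 0.0606 CPM (SD, n = 3). On the CPM scale this was the one gene of the 7 for which NDD replicate 1 fell outside the WT range, and it fell below it, while NDD replicate 2 was 4.36-fold above the highest WT library. NDD over WT was 1.48 on the log2 scale (SE 0.80 and adjusted p 0.481 in edgeR). H2-Ea-ps had 0 counts in all 5 libraries.

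Cd74, the invariant chain, which holds new class II chains and steers them to endosomes, was the most abundant of the 7 genes in every library on the TPM scale. It had 59 and 475 counts in NDD replicates 1 and 2 and 47, 157 and 60 in WT, or 2.58 and 22.2 CPM against 2.43, 6.90 and 2.57 CPM. WT replicate 2 was above the other WT libraries, as it was for H2-Aa, H2-Ab1, H2-Eb1 and H2-DMb1. NDD replicate 2 was 3.22-fold above WT replicate 2, and NDD replicate 1 was level with WT replicate 3. On the log2 scale NDD over WT was 1.64 (SE 0.88 and adjusted p 0.481 in edgeR).

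The chains of DM, the chaperone that exchanges the invariant chain remnant for peptide, are encoded by H2-DMa and H2-DMb1. H2-DMa had 31 and 78 counts in NDD replicates 1 and 2 and 29, 34 and 22 in WT, or 1.36 and 3.65 CPM against 1.5, 1.49 and 0.944 CPM. H2-DMb1 had 7 and 53 counts in NDD and 4, 20 and 7 in WT, or 0.306 and 2.48 CPM against 0.207, 0.879 and 0.300 CPM. NDD replicate 2 was 2.43-fold and 2.82-fold above the next highest library. Fold changes on the log2 scale were 0.93 for H2-DMa (SE 0.52 and adjusted p 0.485 in edgeR) and 1.56 for H2-DMb1 (SE 0.98 and adjusted p 0.509 in edgeR). H2-DMb1 shares 31.4% of its 31-base sequences with H2-DMb2, so its value is uncertain. H2-DMb2 was listed at 0 counts in all 5 libraries, and the other 6 genes share at most 1.11% with any other gene.

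As a group, all 7 genes passed the filter on low counts and edgeR's quasi-likelihood test called 0 of 7 (adjusted p under 0.05), where it called 0.0889% of the 13501 tested genes. An unadjusted p under 0.05 was found for 1 of the 7 (H2-Aa, edgeR p 0.0291, adjusted p 0.437) against 11.2% of all genes. DESeq2 called 0 of 7 (2 at an unadjusted p under 0.05, and 2.54% of all genes called). Limma on log2(TPM + 1) called 0 of the 5 that passed its filter on low TPM, which left out Ciita and H2-Eb1 (1 at an unadjusted p under 0.05, and 0.13% of all genes called). Over all genes, an unadjusted p under 0.05 was found for 1786 in DESeq2, out of the 19182 with any count, and for 1300 of 12352 in limma. On CPM the groups overlapped in all 7, while they did not overlap in 32.0% of all genes. On TPM they overlapped in 6 of 7, the exception being H2-Aa, whose overlap on CPM rests on 13 counts in NDD replicate 1 and 13 in WT replicate 2. Over the 7, log2 fold changes had a median of 1.56, with all 7 above 0, beside a median of -0.005 and 49.5% above 0 over all genes. NDD replicate 1 lay inside the WT range in 6 of 7 on CPM, beside 46.5% of all genes, and in 5 of 7 on TPM, where H2-Aa (1.45 TPM) was above it. NDD replicate 2 was at least 2-fold above each other library in 7 of 7, beside 2.83% of all genes. This minimum was chosen after the values were seen. Ciita with 2.11-fold lay closest to it, and 4 of 7 passed a 3-fold minimum, beside 0.615% of all genes.

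The difference between genotypes rested on 1 library. Leaving out NDD replicate 2 gave a median of -0.46 on the log2 scale, and 5 of the 7 fold changes were negative: Ciita -0.01, Cd74 -0.61, H2-Ab1 -0.95, H2-Eb1 -0.46 and H2-DMb1 -0.58. H2-Aa was at 0.88 and H2-DMa at 0.06, and the lowest edgeR adjusted p of the 7 was 0.941. Without NDD replicate 1 the median was 2.39 and the lowest edgeR adjusted p was 0.0562, for H2-Eb1. In that fit 6 of 7 genes had an unadjusted p under 0.05, beside 30.1% of all genes. With 1 NDD library left, that library is assumed to vary as the WT libraries do. Leaving out a WT library kept every fitted gene above 0.

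**Figure D2:**
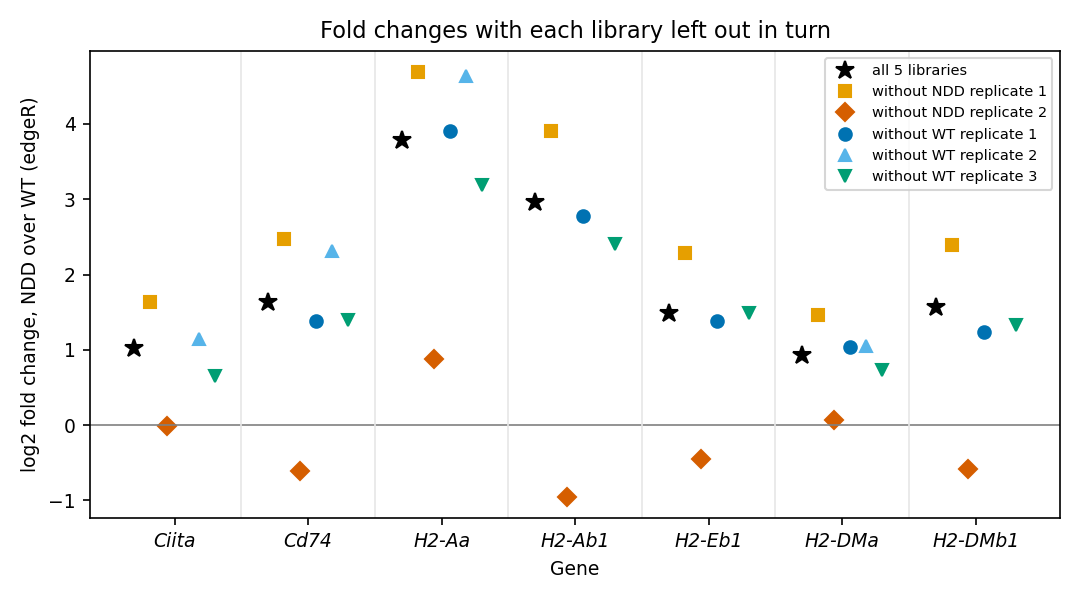
The log2 fold change of each class II gene (NDD over WT, edgeR) with all 5 libraries (star) and with each library left out in turn; a symbol is missing where the gene did not pass the filter. The diamonds, without NDD replicate 2, lie near or below 0 for every gene but H2-Aa, and the squares, without NDD replicate 1, are the highest symbol for every gene.

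On the TPM scale, which allows genes to be compared, the WT order was Cd74 at 6.13 ± 3.66 (SD, n = 3), H2-DMa at 1.45 ± 0.333, H2-Ab1 at 0.873 ± 0.842, H2-DMb1 at 0.787 ± 0.70, H2-Aa at 0.573 ± 0.528, H2-Eb1 at 0.503 ± 0.0473 and Ciita at 0.14 ± 0.0889. Each neighbouring pair from H2-DMa to H2-Eb1 differed by less than the larger SD of the pair. The order was different in NDD replicate 2, where H2-Aa (14.36 TPM) and H2-Ab1 (12.2 TPM) came next after Cd74 (31.91 TPM) and stood above H2-DMb1 (3.94 TPM), H2-DMa (3.83 TPM), H2-Eb1 (2.31 TPM) and Ciita (0.41 TPM). Ratios between partners were compared only in libraries where each gene had over 3 counts, which leaves out WT replicate 3 for the I-A chains. The TPM ratio of H2-Aa to H2-Ab1 was 1.44 and 1.18 in NDD and 1.15 and 0.571 in WT replicates 1 and 2. That of Cd74 to the mean of H2-Aa and H2-Ab1 was 3.37 and 2.40 in NDD and 6.14 and 7.24 in WT, so these groups did not overlap. That of H2-DMa to H2-DMb1 was 2.64 and 0.972 in NDD and 5.39, 1.02 and 2.33 in WT, and overlapped. Exact two-sided permutation tests of the log2 ratios gave p = 0.333, p = 0.333 and p = 0.80 (0.50, 0.50 and 0.80 adjusted over the 3 ratios). The smallest p the design allows is 0.333 with 2 against 2 libraries and 0.20 with 2 against 3.

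Markers of other cells were read for signs that class II came from antigen-presenting cells in the cultures. Of 15 immune markers, 11 had at most 3 counts in any library. The dendritic cell growth factor receptor Flt3 and the myeloid adaptor Tyrobp had 0 counts in all 5 libraries. Itgam had 13 and 33 counts in NDD replicates 1 and 2 and 28, 37 and 39 in WT. Csf1r had 1 and 8 counts in NDD and 11, 23 and 70 in WT. Zbtb46 had 4 and 4 counts in NDD and 3, 6 and 6 in WT. Ptprc, which marks all white blood cells, had 0 counts in NDD replicate 2 and at most 2 elsewhere. The 15 markers summed to 3.38 and 4.37 TPM in NDD and 5.84 to 8.57 TPM in WT, so NDD replicate 2 was below every WT library. Most of each sum came from Cd68, a lysosomal protein, at 3.42 TPM in NDD replicate 2 and 5.88 TPM in WT replicate 3. Some other markers were also highest in NDD replicate 2. The 8 fibroblast markers summed to 8.31 TPM in NDD replicate 2 and 1.2 to 3.2 TPM in the other 4 libraries, of which 8.17 TPM was Pdgfrb, while Lum and Thy1 had 0 counts in all libraries and Dcn had at most 1. The 6 endothelial markers summed to 2.96 TPM in NDD replicate 2 and 0.65 to 1.13 TPM elsewhere, of which 2.86 TPM was Vwf, while Kdr and Emcn were at 0 in all libraries. Of the 10 epithelial markers, NDD replicate 2 was the highest library on TPM in 2 (Krt20 and Cdx2) and the lowest in 4 (Krt8, Krt18, Krt19 and Cldn7). Krt20, a keratin of surface colonocytes named after its values were seen, was at 56.6 and 114.19 TPM in NDD and 32.51, 31.94 and 4.64 TPM in WT. The part of these in the class II values was not tested.

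**Figure D3:**
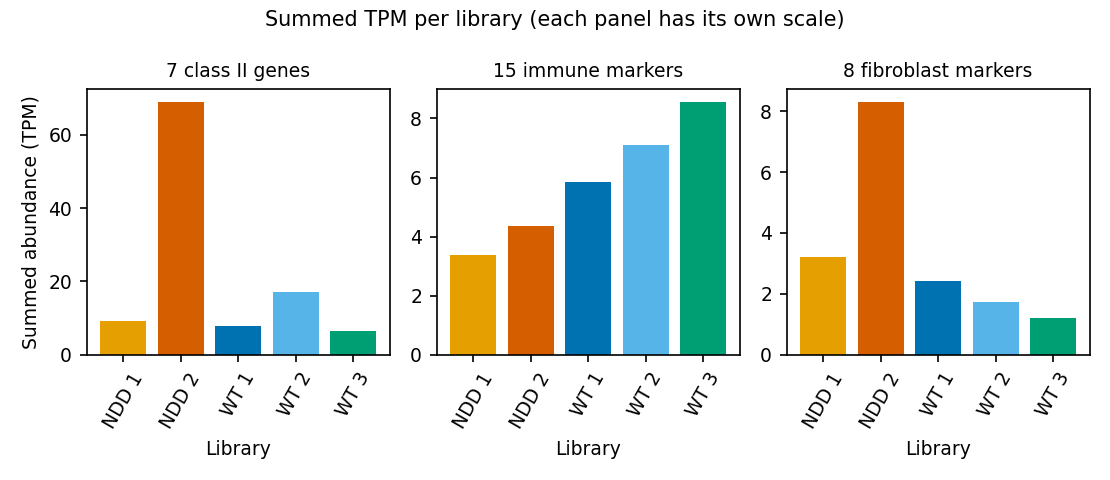
Summed TPM of the 7 class II genes, of the 15 immune markers and of the 8 fibroblast markers (bars, 1 per library, each panel with its own axis from 0). The class II sum reaches 69 TPM in NDD replicate 2 and 6.48 to 17.1 TPM elsewhere, the immune sum is lower in both NDD libraries than in WT, and the fibroblast sum is highest in NDD replicate 2.

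Other genes of the pathway were compared in the same fit. Of 33 genes on 6 lists (DNA-binding partners of CIITA, peptide processing, other class II genes, turnover, costimulatory or coinhibitory ligands and interferon-gamma input), 24 were tested. In edgeR 0 of 24 had an adjusted p under 0.05 and 2 had an unadjusted p under 0.05, near the 11.2% of all genes. DESeq2 called 0 of the 24 to which it gave an adjusted p with 1 at an unadjusted p under 0.05, and limma on log2(TPM + 1) called 0 of 23 with 1. Their median log2 fold change was 0.06, with 13 above 0 and 11 below. The other class II genes H2-Oa, H2-Ob, H2-DMb2, H2-Eb2 and H2-Ea-ps had 0 counts in all libraries. H2-Oa and H2-Ob encode DO, the inhibitor of DM found mainly in B cells.

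The proteins that bind class II promoters were well read in every library. The 7 genes had a median log2 fold change of -0.16, from -0.30 to 0.31. Nfyc, a subunit of the Y box factor NF-Y, was at 70.92 and 48.76 TPM in NDD and 79.1, 69.14 and 76.3 TPM in WT (log2 fold change -0.30, SE 0.16, adjusted p 0.481 in edgeR). Nfya and Nfyb, the other subunits, were at -0.09 and -0.16 on the log2 fold change scale, with edgeR adjusted p of 0.775 and 0.703. Creb1, which binds within the X box, averaged 9.06 ± 1.33 TPM in NDD (SD, n = 2) and 11.2 ± 0.784 TPM in WT (SD, n = 3; log2 fold change -0.29, SE 0.13, adjusted p 0.465 in edgeR). In both, the groups did not overlap on the CPM scale, though those of Nfyc did on the TPM scale, and NDD replicate 2 was the lowest library. Of the subunits of the X box factor RFX, all named after their values were seen, Rfxank was highest in NDD replicate 2, at 10.56 and 12.97 TPM in NDD and 10.53, 9.37 and 9.12 TPM in WT (log2 fold change 0.31, SE 0.18, adjusted p 0.485 in edgeR). Rfx5 and Rfxap had log2 fold changes of 0.04 and -0.28 (edgeR adjusted p 0.905 and 0.493).

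Among the 6 genes of lysosomal processing, the median log2 fold change was 0.03. Ctss, the protease that trims the invariant chain in antigen-presenting cells, was at 102.14 and 116.23 TPM in NDD and 62.8, 70.97 and 40.09 TPM in WT. The groups did not overlap, and unlike the class II genes the NDD libraries were near each other. The log2 fold change was 0.94 (SE 0.27, edgeR p 0.0118, adjusted p 0.381). The other named genes were the proteases Ctsd and Ctsb and the thiol reductase Ifi30, with log2 fold changes of 0.12, 0.14 and -0.06 and edgeR adjusted p of 0.662, 0.621 and 0.84. March8, a ligase that removes class II from the surface, was at 32.33 and 30.74 TPM in NDD and 27.05, 25.76 and 26.08 TPM in WT (log2 fold change 0.28, SE 0.11, edgeR p 0.0456, adjusted p 0.44). March1, its relative in antigen-presenting cells, had at most 3 counts.

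Ligands that act beside class II on T cells were read unevenly. Cd86 and Cd40, ligands of antigen-presenting cells, had at most 2 counts in any library, and Cd80 had 11 and 2 in NDD and 6, 12 and 12 in WT (log2 fold change -0.63, SE 0.76, adjusted p 0.70 in edgeR). Cd274, which encodes the inhibitory ligand PD-L1, had a log2 fold change of 0.39 (SE 0.40 and adjusted p 0.657 in edgeR). Icosl, the ligand of ICOS, was at 6.84 and 9.2 TPM in NDD and 9.95, 9.8 and 13.83 TPM in WT (log2 fold change -0.45, SE 0.24, adjusted p 0.481 in edgeR).

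The inducer of Ciita, Ifng, had 0 counts in all 5 libraries. Its receptor chains were abundant, and Ifngr1 and Ifngr2 had log2 fold changes of 0.07 and 0.20 (edgeR adjusted p 0.813 and 0.566). Irf1, an interferon-induced transcription factor that acts on Ciita, was at 51.43 and 60.55 TPM in NDD and 49.29, 42.1 and 35.66 TPM in WT, with no overlap between groups (log2 fold change 0.43, SE 0.19, adjusted p 0.46 in edgeR). Jak2, chosen after its values were seen, was at 25.38 and 30.04 TPM in NDD and 24.24, 26.42 and 22.85 TPM in WT. All 7 tested genes of this list lay between -0.05 and 0.43 on the log2 fold change scale.

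**Figure D4:**
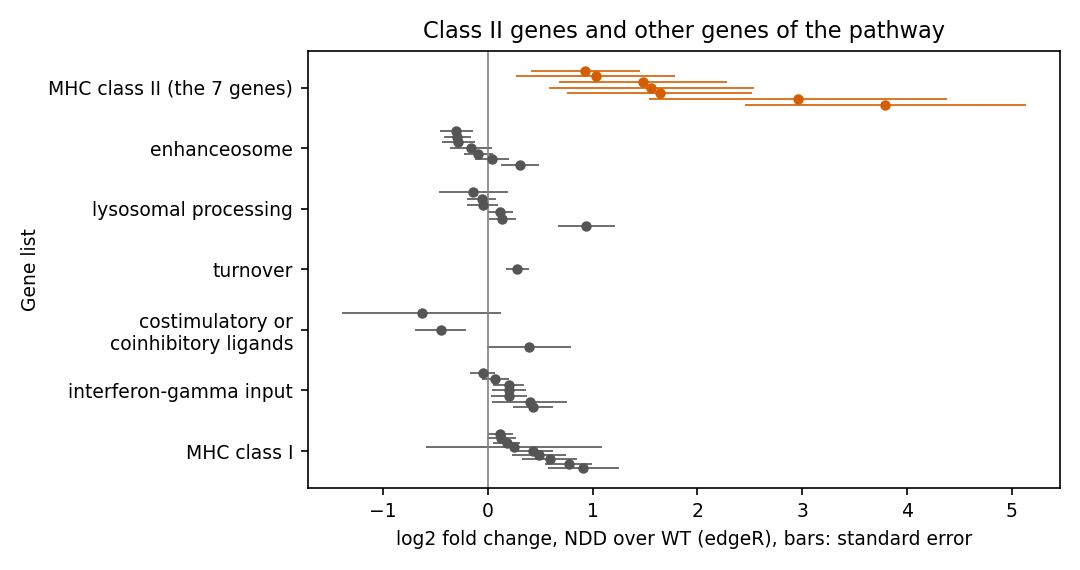
The log2 fold change (NDD over WT, edgeR, all 5 libraries) of each tested gene of the class II group and of 6 related lists, 1 point per gene with bars for its standard error. The 7 class II genes lie from 0.93 to 3.79 with wide bars, and the genes of the other lists lie from -0.63 to 0.94.

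MHC class I genes, which present peptides from the cytosol and whose coactivator Nlrc5 resembles CIITA, served for comparison. Of 9 genes, 0 had an adjusted p under 0.05 and 2 an unadjusted p under 0.05 in edgeR, beside 11.2% of all genes. DESeq2 had 0 and 2 of 9, beside 1786 of the 19182 genes with any count at an unadjusted p under 0.05. Limma on log2(TPM + 1) had 0 and 3 of the 8 it fitted, beside 1300 of 12352 genes. The median log2 fold change in edgeR was 0.43, with all 9 above 0, beside 49.5% of all genes. H2-K1 and H2-D1, the presenting chains, were at 376 ± 0.849 and 409 ± 14.8 TPM in NDD (SD, n = 2) and 351 ± 13.6 and 367 ± 18.5 TPM in WT (SD, n = 3), with log2 fold changes of 0.12 and 0.18 (edgeR adjusted p 0.635 and 0.547). B2m, the light chain, was at 437.62 and 577.43 TPM in NDD and 407.27, 402.67 and 347.65 TPM in WT (log2 fold change 0.43, SE 0.19, adjusted p 0.456 in edgeR). Tap2, a peptide transporter subunit, had a log2 fold change of 0.77 (SE 0.22 and adjusted p 0.385 in edgeR) and Psmb9, an immunoproteasome subunit, one of 0.91 (SE 0.34 and adjusted p 0.437 in edgeR). For Psmb9, NDD replicate 2 was 1.90-fold above the next highest library on CPM. Without NDD replicate 1, B2m, Psmb9 and Tap2 had edgeR adjusted p of 0.0496, 0.0478 and 0.0415, in a fit that called 8.62% of all genes. Whether class I and class II differed in their response was not tested.

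Neighbouring genes in the MHC were looked at next. Between H2-DMa and H2-Eb1 lie 6 other protein-coding genes, of which H2-DMb2 and H2-Ob were at 0 and Psmb9, Tap1, Psmb8 and Tap2 were tested. The last 4 sit between H2-DMb1 and H2-Ab1.

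Genes with a profile like that of the class II group were looked for over the 5 libraries. The measure was the root mean square distance between a gene's centred log2 CPM and the mean centred profile of the 7, among 10409 named genes whose mean log2 CPM was 2 or more (symbols of predicted genes left out). The mean profile stood at -0.55 and 2.17 in NDD replicates 1 and 2 and at -0.53, 0.20 and -1.27 in WT replicates 1, 2 and 3. The nearest gene was Atf5, a stress-induced transcription factor (distance 0.196), at 51.89 and 315.4 CPM in NDD and 51.04, 67.37 and 37.06 CPM in WT. Chac1, an enzyme that degrades glutathione, was next (distance 0.24), at 14.73 and 88.27 CPM in NDD and 9.42, 19.6 and 8.58 CPM in WT. The lipoprotein receptor Vldlr (0.292), the uridine phosphorylase Upp1 (0.296), the iron exporter Slc40a1 (0.325), the peptidase Ace (0.327) and Fhl1 (0.334) followed. The distance to a profile that is highest in NDD replicate 2 and lowest in WT replicate 3 chose these genes, so their sharing that order is no finding. The 7 class II genes themselves lay between 0.328 (Cd74) and 0.959 (H2-Aa) from their own mean profile. All of them but Cd74 were below the minimum abundance set for the other genes, and their distances rest on few counts. The class II distances therefore cannot be set against those of the nearest genes.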

How the data were processed

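The labels' protocols give a stranded mRNA library kit. Bowtie2, RSEM and the build mm10 are named in the submitters' processing notes, without versions or roles. The annotation and the handling of strand and of shared reads are not given in the sources used here. The authors deposited estimated counts per gene as whole numbers, used here as deposited, and TPM, which the authors scaled to length and to 1000000 per library. Class II genes differ between mouse strains, and reads from FVB alleles may align less well to a C57BL/6 reference; alleles were not typed here.

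Counts of all 5 libraries were tested with edgeR 4.0.16 (R 4.3.3; quasi-likelihood, robust, TMM, filterByExpr with a minimum count of 10, 13501 genes, no covariate, Benjamini-Hochberg over all genes, called under 0.05). The plan allowed for estimated counts. The SE is the log2 fold change over the square root of F. CPM uses TMM-scaled library sizes. Alternatives were RLE factors, other filters, DESeq2 1.42.0, limma 3.58.1 on log2(TPM + 1) or log2(TPM + 0.1) with at least 1 TPM in 2 libraries, limma with no filter, the replicate number as a block and each library left out. Ratios were tested by exact permutation (scipy 1.17.1). On simulated counts (13303 genes, 200 changed by 2 on the log2 scale) edgeR found 83% of those changed and made 8 false calls. The changed genes were drawn only from those averaging above 1 CPM over the libraries. Ciita, H2-Eb1 and H2-DMb1 averaged less, so the 83% does not cover them. The share found among genes near that minimum, such as H2-Aa, H2-Ab1 and H2-DMa, was not measured.

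The members and lists were chosen with earlier results of these data known. Named genes are the 7 members and, per list, the 3 with the highest mean TPM, the 2 with the smallest p and any called, plus the 8 genes with the nearest profile; some genes these rules select are not reported here. Rfx5, Rfxank, Rfxap, Jak2, Cd86, Cd40, Ifng, H2-Eb2, H2-Ea-ps, Tap1 and Psmb8 are on the lists but outside this rule, and were named after their values were seen. Sequences are from RefSeq (GRCm38.p6).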

Additional observations from a re-analysis of the deposited data

How the results depend on the processing

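The number of class II genes with an adjusted p under 0.05 was 0 under all 8 alternatives of scaling, filter, tool and block. It was also 0 with each WT library left out, and so was that of the other pathway genes. Over all genes, these fits called from 0 of 13327 (without WT replicate 1) to 365 of 14345 (DESeq2). Some fits held few class II genes: 2 with at least 10 counts in every library, 4 without WT replicate 2 and 5 in filtered limma. With so few genes called or fitted, a count of 0 says little. The number of class II genes at an unadjusted p under 0.05 was 0 to 2 under the 8 alternatives. The median log2 fold change of the class II genes was 1.56. Moves in it were judged against 0.693, the SD over the 3 WT libraries of the genes' median log2(CPM + 0.1). The median fold change moved by more than this, to 0.71, with limma on log2(TPM + 1) without a filter. Leaving out each library in turn gave -0.46 to 2.39. Ranges over the same fits crossed 0 for Ciita (-0.01 to 1.63), Cd74 (-0.61 to 2.47), H2-Ab1 (-0.95 to 3.91), H2-Eb1 (-0.46 to 2.28) and H2-DMb1 (-0.58 to 2.39), and also for Rfx5 (-0.11 to 0.18), Nfya (-0.24 to 0.063), Nfyb (-0.44 to 0.078), Ifi30 (-0.20 to 0.066), Cd80 (-2.21 to 0.10) and Ifngr1 (-0.064 to 0.19). Without NDD replicate 2 each of these 11 changed sign, and Ifi30 also did so without WT replicate 2 (0.02). They did not cross 0 for H2-Aa (0.88 to 4.69) and H2-DMa (0.06 to 1.47). The log2 TPM ratio of H2-DMa to H2-DMb1, -0.55 for NDD minus WT, ranged from -1.27 to 0.18 and was above 0 without NDD replicate 2 (0.18) and without WT replicate 1 (0.06). The count of class II genes with NDD replicate 2 at least 2-fold above each other library was 7 on unscaled CPM, 6 on TPM and 4 with a 3-fold minimum, alternatives chosen after the values were seen.

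The labels do not say that a replicate number marks a litter, batch or day. Across genes, the deviation from the group mean had a correlation of -0.009 between the replicates numbered 1 and of 0.353 between those numbered 2. With these 2 pairs no pairing was assumed. Adding the replicate block, 0 class II genes and 0 other pathway genes were called, and 33 genes in all against 12 without it. The block lowered the fold change of every class II gene on the log2 scale: Ciita to 0.51, Cd74 to 0.96, H2-Aa to 2.52, H2-Ab1 to 1.62, H2-Eb1 to 1.13, H2-DMa to 0.59 and H2-DMb1 to 1.16, with a median of 1.13.

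Depth is a limit for these genes. Ciita had at most 21 counts and H2-Eb1 at most 45, and H2-Aa was at 0 in WT replicate 3, so ratios in single libraries rest on few reads.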

Other observations

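The TPM that a count of H2-Ab1 stands for was not the same in every library. It was 0.168 TPM per count in NDD replicate 1 (6 counts, 1.01 TPM) and 0.21 in WT replicate 3 (1 count), against 0.0722 in NDD replicate 2, 0.0843 in WT replicate 1 and 0.07 in WT replicate 2. The fold of NDD replicate 2 over NDD replicate 1 in H2-Ab1 was 30.2 on CPM and 12.1 on TPM, so its size is uncertain. Why the TPM per count differed was not tested. The 6 counts in NDD replicate 1 have an exact Poisson 95% interval of 2.2 to 13.1.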
